A study of Arabidopsis thaliana with 3 samples.

Results

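The genes described here encode proteins that shape, sort and fuse membranes inside the plant cell. They were chosen by symbol from the gene table of the ATH1 array: a name that starts with VPS, SNF7, CHMP, ELC, SNX, SYP, VAMP, VTI, EXO70, RAB or TET, followed by a digit or by a letter and a digit, with a bare ELC and the names SNF7.1 and SNF7.2 counted too. This rule found 29 of the 13356 named genes: 13 with the prefixes VPS, SNF7 or ELC, 15 tetraspanin (TET) genes and RAB6A. The rule reads symbols only, but it was set with earlier results of these data known. The SNARE prefixes SYP, VAMP and VTI gave 0 members, as did SNX and EXO70, so SNARE genes enter only through other trafficking genes described further on. Of the 13, VPS9B is no ESCRT subunit, which leaves 12 ESCRT genes. All 29 members had 1 probe set of their own and the same symbol in RefSeq.

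RNA came from whole Arabidopsis thaliana seedlings, 2 weeks old and grown on half-strength medium. There were 3 arrays, 1 each of a transgenic plant overexpressing DRB3 (DRB3-OX), a transgenic plant overexpressing DRB2 (DRB2-OX) and wild type. DRB proteins bind double-stranded RNA and have known roles in small RNA pathways. No probe set named for DRB2 or DRB3 was among those used, so the level of the transgenes was not analysed here and the genotype labels stand unchecked. The promoter of each transgene, the number of lines and the ecotype were not given in the sources used here. With 1 array per genotype there is no replicate error, no test was run, and the small number of arrays limits how precise any value can be.

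ESCRT complexes sort ubiquitinated membrane proteins into the inner vesicles of multivesicular bodies, from which they reach the vacuole and are broken down. ESCRT-I and ESCRT-II gather the cargo and start the assembly of ESCRT-III, whose subunits polymerise and pinch off the vesicle before an ATPase takes them apart. SNARE proteins pair across membranes to fuse them, Rab GTPases mark which membrane is which, and tetraspanins are small proteins with 4 membrane spans that gather other proteins into patches of the membrane. TET8 is used as a marker of extracellular vesicles in Arabidopsis.

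The unit throughout is the linear MAS5 intensity. An intensity under 109 was treated as a weak signal and set to that floor before a ratio was taken, so a ratio with 1 side under the floor is a bound. The 2% trimmed mean was 500.05 on each array. Levels of different probe sets cannot be set against each other, so each gene is compared only with itself. In whole seedlings, fewer cells of a type and less RNA per cell cannot be told apart. In 6 of 6 pairs of control probe sets, the ratio of 3′ to 5′ signal, a sign of RNA and labelling quality, was lowest in DRB3-OX and highest in wild type; for GAPDH it was 3.89 in DRB3-OX, 5.77 in DRB2-OX and 9.31 in wild type. The 25S ribosomal RNA control gave 11339 in DRB3-OX, 3603 in DRB2-OX and 12982 in wild type. Of 9 listed green-tissue genes 1 was measured, the Rubisco activase gene RCA, at 21690 in DRB3-OX, 29895 in DRB2-OX and 33718 in wild type. Of 9 listed root genes 2 were measured, the expansin genes EXPA18 and EXPA7. EXPA18 read 439 in DRB3-OX, 278 in DRB2-OX and 184 in wild type, a log2 ratio of 1.26 in DRB3-OX over wild type. EXPA7 read 158 in DRB3-OX, 95.1 in DRB2-OX and 52.1 in wild type, above the floor in DRB3-OX alone. The part of these control and marker readings in the differences below was not tested.

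No member was 2-fold higher or lower in any of the 3 comparisons. Among all named genes, 2.97% were at least 2-fold apart between DRB3-OX and wild type, 0.943% between DRB2-OX and wild type, and 1.19% between DRB3-OX and DRB2-OX, so a count of 0 among 29 genes lies close to the background. Of the 29 members, 18 were above the floor on all 3 arrays, 2 on 1 array and 9 on none. Of the 13356 named genes, 6779 were above it on all 3 arrays and 7766 on at least 1. With no member 2-fold apart, the differences described below are small, and each rests on single arrays.

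**Figure D1:**
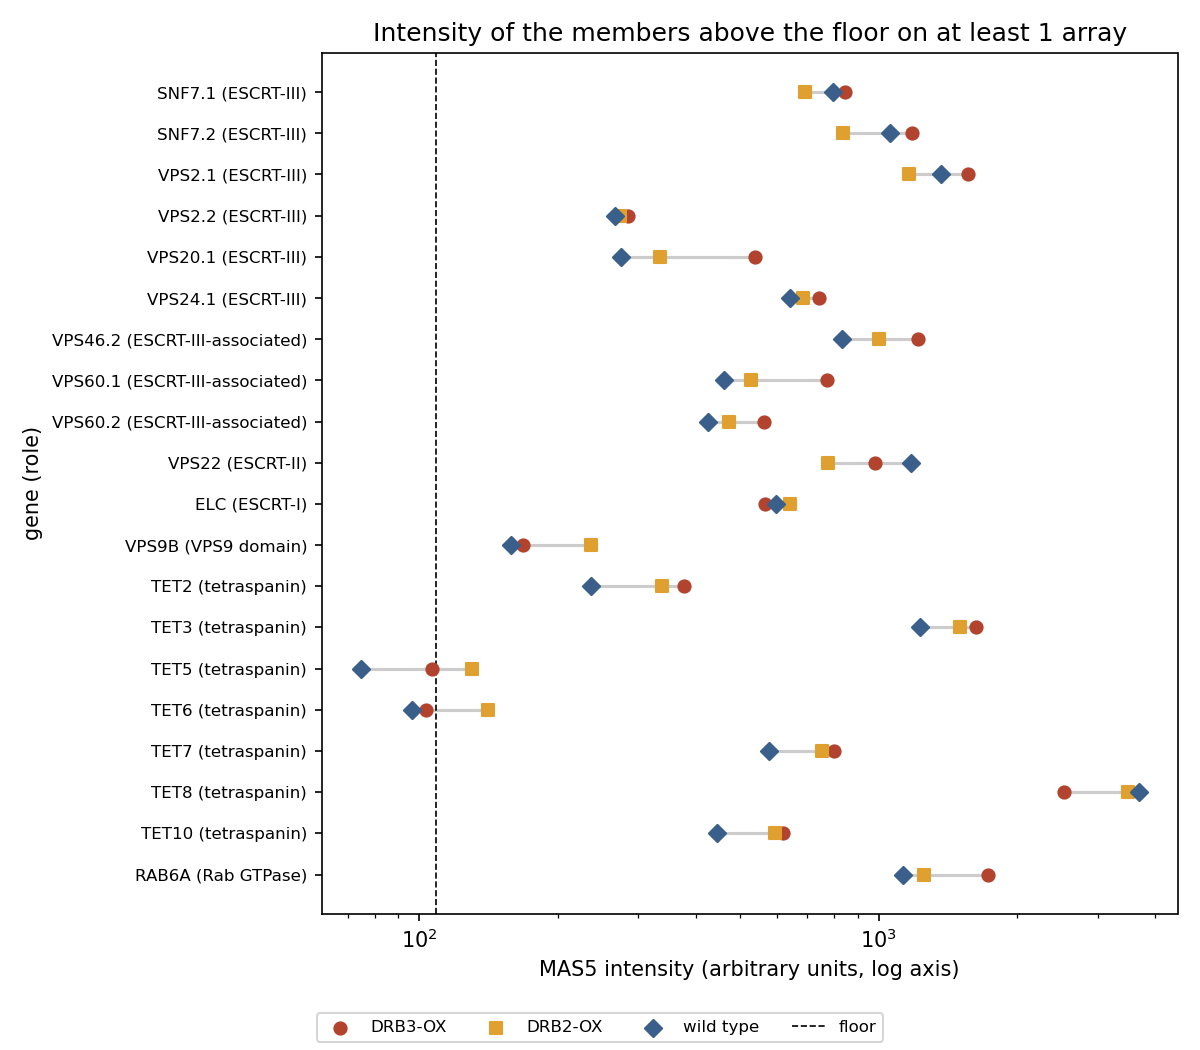
MAS5 intensity (arbitrary units, log axis) of the 20 members with at least 1 array above the floor, with a point for each of the 3 arrays (DRB3-OX, DRB2-OX, wild type) and the floor of 109 as a dashed line. The points of most genes lie close together; VPS20.1 has the widest gap between DRB3-OX and wild type among genes above the floor on all 3 arrays, 538 against 275.

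Among the ESCRT genes, which were grouped by complex after their values were seen, the ESCRT-III subunits and their associated proteins stood highest in DRB3-OX. All 9 such genes above the floor had their highest intensity there, against 36.2% of the 6779 named genes above the floor on all 3 arrays. Without that grouping, 9 of the 12 genes with ESCRT prefixes above the floor on all 3 arrays did, or 75%. So did 14 of all 18 members above the floor on all 3 arrays (77.8%), among them 4 of the 5 tetraspanins (80%). A peak in DRB3-OX was thus not particular to ESCRT-III. The remaining ESCRT-III gene, VPS24.2, was under the floor on every array and read 0.755 in DRB3-OX, 2.80 in DRB2-OX and 2.05 in wild type.

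VPS20.1 had the largest ratio of all members. In yeast its homologue links ESCRT-II to the first SNF7 molecules of the growing polymer. The probe set read 538 in DRB3-OX, 335 in DRB2-OX and 275 in wild type. It was 1.95-fold higher in DRB3-OX than in wild type, just short of 2-fold, and 175 of the 6779 genes had a higher ratio. Against DRB2-OX it was 1.61-fold higher, a ratio exceeded by 217 genes.

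SNF7 is the main building block of the ESCRT-III polymer. SNF7.1 read 843 in DRB3-OX, 691 in DRB2-OX and 795 in wild type. The other copy, SNF7.2, read 1184 in DRB3-OX, 835 in DRB2-OX and 1059 in wild type. VPS2 acts late in the polymer and, in yeast, helps to bring in the ATPase that takes it apart. VPS2.1 read 1568 in DRB3-OX, 1165 in DRB2-OX and 1368 in wild type. These 3 genes share a profile that differs from that of VPS20.1: DRB2-OX was lowest, at a log2 ratio to wild type of -0.20 for SNF7.1, -0.34 for SNF7.2 and -0.23 for VPS2.1, while the log2 ratios of DRB3-OX to wild type were 0.08, 0.16 and 0.20 in the same order. Of the 6779 genes, 14.2% had this order of arrays. Between the overexpressors themselves SNF7.2 was 1.42-fold and VPS2.1 1.35-fold higher in DRB3-OX.

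The other 2 core subunits varied little. VPS2.2 read 285 in DRB3-OX, 274 in DRB2-OX and 267 in wild type, with no dip in DRB2-OX like that of VPS2.1. VPS24.1, which in yeast works together with VPS2, read 742 in DRB3-OX, 684 in DRB2-OX and 641 in wild type. Both lay within the central 50% of all genes in each comparison.

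VPS46 and VPS60 proteins bind the ESCRT-III polymer and, in yeast, tune the ATPase that recycles it; VPS46.2 is also called CHMP1A and belongs to a pair needed in Arabidopsis to sort auxin carriers to the vacuole. VPS46.2 read 1219 in DRB3-OX, 1004 in DRB2-OX and 833 in wild type. VPS60.1 read 770 in DRB3-OX, 527 in DRB2-OX and 462 in wild type. VPS60.2 read 564 in DRB3-OX, 471 in DRB2-OX and 425 in wild type. All 3 followed the same order, with DRB3-OX highest and wild type lowest, as did 22.0% of all genes above the floor. Their log2 ratios in DRB3-OX over wild type were 0.55, 0.74 and 0.41, and in DRB2-OX over wild type 0.27, 0.19 and 0.15. The 3′ to 5′ ratios of the controls ran in the opposite order of arrays, and their part in these ratios was not tested.

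Among the members, the subunits that act before ESCRT-III, ELC and VPS22, had other profiles. This does not extend to AT5G04920 and AT2G36680, genes outside the members with synonyms of such subunits. Both were highest in DRB3-OX, and their values are given further on. ELC, an ESCRT-I protein that binds ubiquitin, read 565 in DRB3-OX, 640 in DRB2-OX and 598 in wild type, a spread of 1.13-fold between the overexpressors. VPS22, a subunit of ESCRT-II, read 983 in DRB3-OX, 775 in DRB2-OX and 1175 in wild type. It was 1.52-fold lower in DRB2-OX than in wild type, and 308 of the 6779 genes had a lower ratio. VPS22 and ELC were the only ESCRT genes above the floor that read lower in DRB3-OX than in wild type.

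VPS9B carries the VPS prefix but encodes a protein with a VPS9 domain, which in the related VPS9A activates Rab GTPases of the RAB5 group. It read 168 in DRB3-OX, 237 in DRB2-OX and 158 in wild type. Its log2 ratio was 0.58 in DRB2-OX over wild type and -0.49 in DRB3-OX over DRB2-OX, and both were 0 with the floor at percentile 60, where all its readings lay under it.

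**Figure D2:**
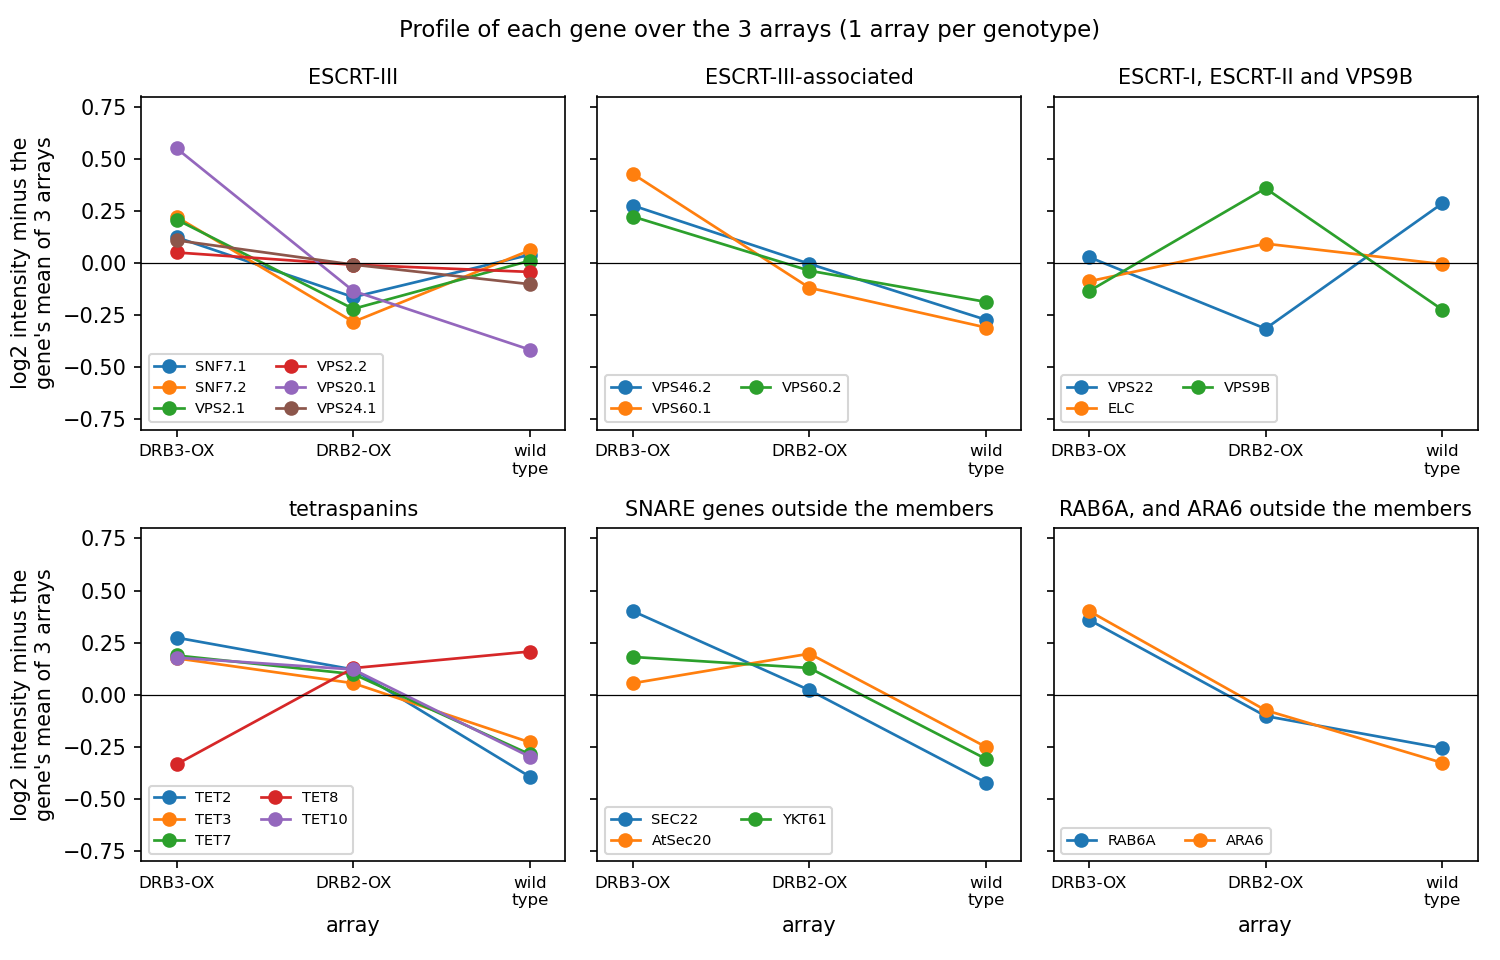
Profile of each gene over the 3 arrays, drawn as its log2 intensity minus the mean of its 3 log2 intensities (no unit), with 1 line per gene and 1 panel per role. Genes of ESCRT-III and its associated proteins peak in DRB3-OX, as do 4 of the 5 tetraspanins. The same 4 tetraspanins are lowest in wild type, with the overexpressors close together. Of the 9 genes of ESCRT-III and its associated proteins, 6 are lowest in wild type too. TET8 runs the other way. SNARE genes and ARA6 come from the list of other trafficking genes.

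Tetraspanins split by whether their intensity passed the floor, which is a chosen setting. Of the 15, 5 were above the floor on all 3 arrays, TET5 and TET6 in DRB2-OX alone, and 8 on none. Of the 13356 named genes, 6779 were above it on all 3 arrays and 7766 on at least 1. The 8 tetraspanins on none were TET4, TET9, TET11, TET12, TET13, TET14, TET15 and TET16. Together with VPS24.2 they read between 0.755 and 59.3, the highest being TET9 in DRB3-OX. TET11 and TET12 are known from pollen, and TET11 and TET16 are neighbours with 0 protein-coding genes between them.

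Of the 5 above the floor on all 3 arrays, 4 were lowest in wild type, as were 35.8% of the 6779 genes. The same 4 were highest in DRB3-OX, as were 36.2% of those genes. TET2 read 376 in DRB3-OX, 338 in DRB2-OX and 237 in wild type. TET3, a protein reported from plasmodesmata, read 1630 in DRB3-OX, 1500 in DRB2-OX and 1232 in wild type. TET7 read 801 in DRB3-OX, 753 in DRB2-OX and 576 in wild type.

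TET10 read 620 in DRB3-OX, 596 in DRB2-OX and 445 in wild type. In these 4 genes the overexpressors lay close together, with log2 ratios of 0.06 to 0.15 between them, while the ratios of DRB3-OX to wild type were 0.40 to 0.67 and those of DRB2-OX to wild type 0.28 to 0.52, on the same scale. The ratios to wild type share the single wild-type array, so those of the overexpressors are not independent of each other. TET2 was 1.59-fold higher in DRB3-OX than in wild type, exceeded by 451 of the 6779 genes, and 1.43-fold higher in DRB2-OX, exceeded by 522. With the floor at percentile 60 its log2 ratios to wild type were 0.32 in DRB3-OX and 0.16 in DRB2-OX, against 0.67 and 0.52 here.

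TET8 ran the other way. It read 2528 in DRB3-OX, 3483 in DRB2-OX and 3680 in wild type. It was 1.46-fold lower in DRB3-OX than in wild type and 1.38-fold lower than in DRB2-OX, and 763 and 762 of the 6779 genes had lower ratios. Its log2 ratio in DRB2-OX over wild type was -0.08. TET9, whose protein gathers with TET8 at sites of fungal infection in Arabidopsis, was under the floor throughout, at 59.3 in DRB3-OX, 55.6 in DRB2-OX and 51.1 in wild type.

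TET5 and TET6 act redundantly to limit organ growth in Arabidopsis. TET5 read 106 in DRB3-OX, 130 in DRB2-OX and 74.6 in wild type, and TET6 read 103 in DRB3-OX, 141 in DRB2-OX and 96.2 in wild type. Only the readings of DRB2-OX lay above the floor, giving log2 ratios to wild type of at least 0.26 and 0.38, and both genes passed the floor through that array alone.

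RAB6A, also called RABH1B, encodes a Rab GTPase of the Golgi. It read 1732 in DRB3-OX, 1257 in DRB2-OX and 1129 in wild type. It was 1.53-fold higher in DRB3-OX than in wild type, exceeded by 560 of the 6779 genes, and 1.38-fold higher than in DRB2-OX.

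Over the 13 genes with ESCRT prefixes the median log2 ratio was 0.16 in DRB3-OX over wild type, 0.09 in DRB2-OX over wild type and 0.28 in DRB3-OX over DRB2-OX. Over all 15 tetraspanins it was 0 in each comparison, since most lay under the floor. Over the 13356 named genes it was likewise 0 in each. These comparisons share arrays, so the 3 medians of a family are not separate evidence. Beyond these medians the profiles of both families were only described. No value contrasting them was taken, as the tetraspanins above the floor are few and chosen by their intensity.

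At a lower threshold of 1.5-fold, DRB3-OX had 4 of the 29 members higher than in wild type (VPS20.1, VPS60.1, TET2 and RAB6A) and 0 lower, where 5.32% of all named genes were higher and 5.59% lower. DRB2-OX had 0 members higher and 1 lower than in wild type (VPS22), against 3.39% and 2.92% of all genes. In DRB3-OX over DRB2-OX 1 member was higher (VPS20.1) and 0 lower, against 2.91% and 3.82%.

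**Figure D3:**
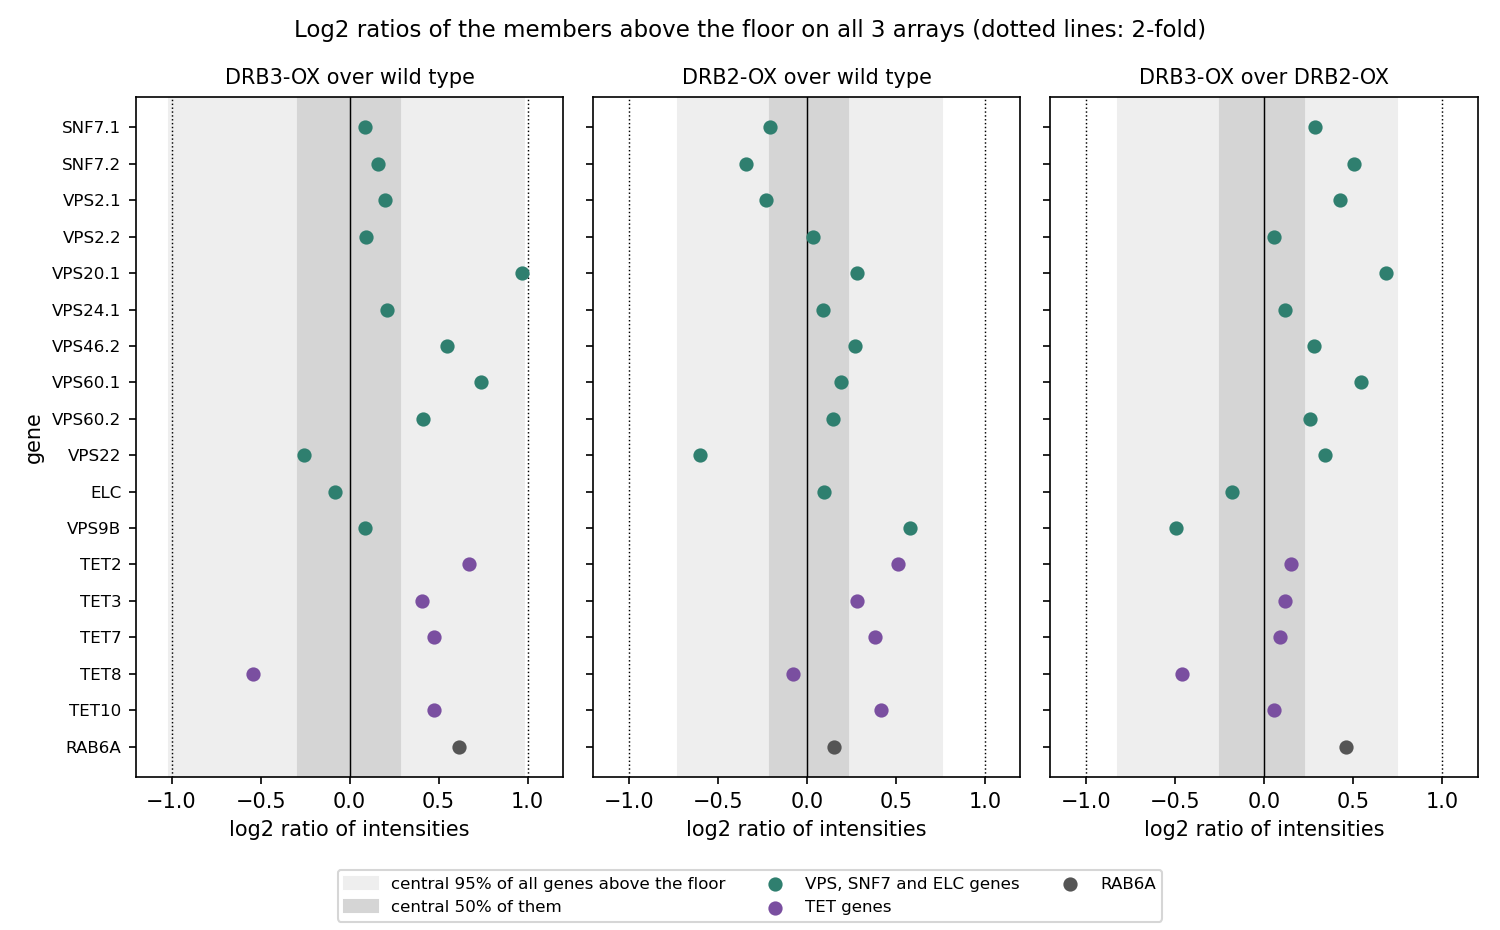
Log2 ratios of intensity of the 18 members above the floor on all 3 arrays, in each of the 3 comparisons, over bands that hold the central 95% (light) and 50% (dark) of all 6779 named genes above the floor on all 3 arrays; dotted lines mark 2-fold. Every member lies within the light band in all 3 panels; in the left panel VPS20.1 lies at its edge, at 0.97.

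The ratios of single genes spread widely between these arrays. The central 95% of the 6779 genes ran from -1.02 to 0.98 in DRB3-OX over wild type, from -0.72 to 0.76 in DRB2-OX over wild type and from -0.82 to 0.75 in DRB3-OX over DRB2-OX. All 18 members lay inside these ranges in each comparison.

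A wider list of 77 names of trafficking genes, not chosen by the symbol rule, had 16 measured genes, 14 of them above the floor on at least 1 array and 0 of them 2-fold apart in any comparison. It supplies the SNARE genes that the members lack. SEC22, which pairs in fusion between the endoplasmic reticulum and the Golgi, read 1289 in DRB3-OX, 990.4 in DRB2-OX and 728 in wild type. YKT61, a SNARE without a membrane span, read 1952 in DRB3-OX, 1881 in DRB2-OX and 1389.5 in wild type. AtSec20 read 653 in DRB3-OX, 721 in DRB2-OX and 528 in wild type.

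All 3 SNARE genes above the floor were thus lowest in wild type, as were 35.8% of the 6779 genes. SEC22 had the largest ratio, 1.77-fold higher in DRB3-OX than in wild type. The other SNARE gene on the list, ATYKT62, was under the floor on all 3 arrays. Among partners of SNAREs of the Sec1/Munc18 family, SLY1 read 475 in DRB3-OX, 437 in DRB2-OX and 318 in wild type. KEU, known from cell plate formation, read 812 in DRB3-OX, 747 in DRB2-OX and 781 in wild type. SEC1B was above the floor in wild type alone, at 130.

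ARA6, a plant-specific Rab GTPase of the RAB5 group on multivesicular bodies, read 1256 in DRB3-OX, 902 in DRB2-OX and 757 in wild type, 1.66-fold higher in DRB3-OX than in wild type. Its profile over the arrays resembles that of RAB6A, with log2 ratios of 0.73 and 0.62 in DRB3-OX over wild type. Exocyst subunits, which tether vesicles to the plasma membrane, were mixed, with a median log2 ratio of 0.10 in DRB3-OX over wild type and -0.08 in DRB2-OX over wild type over the 6 above the floor. SEC15B read 557 in DRB3-OX, 412 in DRB2-OX and 338 in wild type, and SEC10 read 699.8 in DRB3-OX, 706 in DRB2-OX and 912 in wild type.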

How the data were processed

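The deposited values are MAS5 intensities, 1 per probe set and array, per the submitters' processing notes; its version and settings were not stated in the sources used here. Equal trimmed means show that the arrays had been scaled, and they were used as deposited. The series' design text describes another experiment, so groups follow each sample's genotype label.

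Of 22810 probe sets, 64 controls were left out. Probe sets with 1 named gene gave 13356 genes, each read by its brightest probe set, and 8794 probe sets were unnamed here. The floor was percentile 40 of all probe sets but the controls, averaged over the arrays. Log2 ratios were taken on floored intensities and counted at 2-fold. No test was run. The ratio and count steps were tried on simulated arrays, where every planted change was larger than 2-fold. That check does not cover the smaller ratios reported here. The rule for named genes took members 2-fold apart, the 3 highest and 3 lowest ratios of each family, every tetraspanin, members under the floor, and genes of the wider list 2-fold apart, of which there were 0; VPS24.1, VPS60.2 and the genes named from the wider list were added after their values were seen. AT5G14170, listed as CHC1 but no clathrin gene, was left out of that list. The members and lists were chosen with earlier results of these data known.

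The alternatives tried were a floor at percentile 20 or 60, no floor with a pseudocount of 16, centring, quantile normalization, loess (span 0.3), averaging over probe sets of a gene, and 1.5-fold or 3-fold as threshold. Python 3.11.15 was used with pandas 2.3.3, numpy 2.4.6, statsmodels 0.14.6 (loess), scipy 1.17.1 and matplotlib 3.10.9. Of 6 listed seed markers 0 were measured. Of 6 listed pollen markers 2 were measured. TUA1 read 377 in DRB3-OX, 618 in DRB2-OX and 591 in wild type, and ACT12 was under the floor throughout. Of 6 listed markers of dividing cells 2 were measured. AUR1 read 306 in DRB3-OX, 351 in DRB2-OX and 247 in wild type, and AUR2 read 172, 318 and 170 in the same order. No measured marker of these lists was 2-fold apart, and their part in the differences was not tested.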

Additional observations from a re-analysis of the deposited data

How the results depend on the processing

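No member was 2-fold apart under any floor, scaling or pseudocount, and 0 were 3-fold apart. The largest log2 ratio stayed at 0.97 or below in size. Averaging over probe sets could change no ratio of a member, as all 29 had 1 probe set each. At 1.5-fold the counts were 4 higher in DRB3-OX than in wild type, 1 lower in DRB2-OX than in wild type, and 1 higher in DRB3-OX than in DRB2-OX. The median of the ESCRT genes moved by less than 0.1 (log2) under every alternative run, also without VPS9B, over its genes above the floor, and with AT5G04920 and AT2G36680, alternatives chosen after seeing the data. In DRB2-OX over wild type that limit is larger than the median itself, which was 0.09. There the median was 0 with the floor at percentile 60 and 0.03 with AT5G04920 and AT2G36680. The median of the tetraspanins, 0 over all 15, depends on the floor: in DRB3-OX over wild type it was 0.10 with the floor at percentile 20 and 0.17 with a pseudocount of 16. Of the 87 ratios of single members, 10 moved by at least 0.1 with the floor at percentile 20, 10 with it at percentile 60 and 20 with the pseudocount. Under the scaling alternatives 0 did. At percentile 60 these included TET2 in DRB3-OX over wild type (0.32, under 1.5-fold), VPS20.1 in DRB3-OX over wild type (0.83) and VPS9B in DRB2-OX over wild type (0). Of the 87, 1 changed sign, that of VPS2.2 in DRB2-OX over wild type after loess (0.03 and then -0.00179). No paired analysis was possible because there was 1 array per genotype, and no replicate could be left out.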

Other observations

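The RefSeq table gives a synonym with one of the prefixes to further genes whose symbol does not meet the rule. AT5G04920, with the synonym VPS36, a subunit of ESCRT-II like VPS22, read 527 in DRB3-OX, 512 in DRB2-OX and 502 in wild type, so it did not share the low reading of VPS22 in DRB2-OX. AT2G36680, with the synonym VPS37-2, named for an ESCRT-I subunit, read 325 in DRB3-OX, 229 in DRB2-OX and 284 in wild type, the order of arrays of SNF7.1, SNF7.2 and VPS2.1. ATSYP24, a gene named as a syntaxin, was under the floor on all 3 arrays. VPS24.1 and TET12 lie close together, with 7 protein-coding genes between them. The first was above the floor on all arrays and the second on none.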
